A study of Mus musculus with 17 samples.

Results

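The genes described are the translation initiation and elongation factors of mouse keratinocytes, taken by name as every gene whose symbol begins with Eif1 to Eif6 or with Eef1 or Eef2, without the Argonaute genes once called Eif2c and without pseudogene symbols. This gave 63 of the 20572 genes counted, with the eIF4E binding proteins and the eIF2 alpha kinases among them. They were compared between keratinocytes that carried a lentiviral short hairpin RNA against Msi2 (knockdown) and keratinocytes that carried a scrambled hairpin (control). The cells were 1 spontaneously immortalized culture from neonatal C57BL/6 skin, kept on mitomycin-treated NIH-3T3 J2 fibroblasts for 3 passages and on uncoated dishes after that, and both groups were selected with 2 ug/ml of puromycin. Polyadenylated RNA was sequenced in 3 knockdown and 3 control libraries, and ribosome footprints, the RNA pieces that ribosomes shield from nuclease, in another 3 and 3 after 1 min of cycloheximide. Binding of Msi2 was mapped in 5 HITS-CLIP libraries of the same culture, for which the labels name no hairpin and which differ in RNase dilution. Replicates 2 and 3 share a dilution of 1 in 20 and are labelled as low and high molecular weight. In HITS-CLIP, ultraviolet light links protein and RNA in the cell, and an antibody against Msi2 recovers the linked pieces.

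Initiation factors bring the small ribosomal subunit and the initiator tRNA to the capped end of an mRNA and move it to the start codon; elongation factors then deliver each aminoacyl-tRNA and shift the ribosome along. The pathway is controlled mainly by the eIF4E binding proteins, which block cap recognition unless mTOR phosphorylates them, and by kinases of the eIF2 alpha subunit, which lower the supply of initiator tRNA. Msi2 is an RNA-binding protein that acts mostly through 3' UTRs and has been tied to the control of translation.

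The RNA libraries held 9221566 to 26785876 gene counts in the knockdown and 11291571 to 24931967 in the control. The footprint libraries held 512256 to 2069440 in the knockdown and 702602 to 2959625 in the control. Msi2 itself had 4.51, 0 and 5.08 scaled CPM (counts scaled to the library's size) of footprints in knockdown libraries, against 17.0, 16.7 and 18.2 CPM in control libraries. Its RNA overlapped between the groups, with 6.54, 6.41 and 5.10 CPM in the knockdown and 6.51, 6.63 and 8.82 CPM in the control (log2 fold change -0.29, adjusted p = 0.283 by edgeR's quasi-likelihood test; -0.51, adjusted p = 0.0438, once each library's trend with gene span was removed). The 6 keratinocyte markers summed to 11800 to 13300 CPM of RNA in the knockdown and 14000 to 17400 in the control, a sum that Krt5 and Krt14 dominate. Of the 6, Itga6, Itgb4 and Col17a1 were called higher in RNA and Krt5 and Krt14 lower, and the footprint sums overlapped (17000 to 19300 CPM in the knockdown, 17800 to 20100 in the control). The 8 fibroblast markers summed to 8.97 to 10.2 CPM in the knockdown and 4.54 to 7.55 in the control, with Col1a2, Col3a1, Pdgfrb, Dcn and Lum at 0 in all 6 RNA libraries. Most of that sum was Twist2 (7.27, 6.57 and 7.80 CPM in the knockdown, 4.46, 6.59 and 3.68 in the control), which was not called. Pdgfra was called higher in RNA (log2 fold change 1.18, adjusted p = 0.0258). The 6 immune markers summed to 8.37 to 13.5 CPM in the knockdown and 16 to 18.6 in the control, nearly all of it Cd68 (8.52, 13.2 and 7.84 CPM in the knockdown, 16.0, 16.0 and 18.4 in the control), with Cd74, Cd3e and Cd207 at 0. The 6 melanocyte markers summed to 2.08 to 3.76 CPM in the knockdown and 1.71 to 2.31 in the control, with Tyr and Dct at 0. The 6 endothelial and muscle markers summed to 3.36 to 5.30 in the knockdown and 1.49 to 2.57 in the control. Most of that was Kdr (4.78, 2.96 and 3.45 CPM in the knockdown, 1.13, 1.27 and 2.31 in the control), called higher in RNA (adjusted p = 0.0059). The part of these small sums in the results was not tested, and in such bulk samples fewer cells of a type and less RNA per cell cannot be told apart.

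The factors together took a smaller share of the RNA in knockdown than in control libraries, and in the footprints the share depended on Eef1a1. Of all gene counts, the 63 genes took 4.39% ± 0.0874 of RNA in the knockdown and 5.02% ± 0.1 in the control, and 3.33% ± 0.11 of footprints in the knockdown and 3.10% ± 0.0976 in the control (SD, n = 3 each). In neither assay did the groups overlap, and each difference had an exact two-sided permutation p of 0.1, the smallest that 3 against 3 allows. Without Eef1a1, the most counted factor, a sum chosen after seeing the data, the share of RNA was 2.59 to 2.65% in the knockdown and 2.94 to 3.00% in the control. The share of footprints without it was 2.19 to 2.38% in the knockdown and 2.19 to 2.28% in the control, so that the groups overlapped. Reads that aligned to several places, which the counts leave out, made up 19.8 to 24.5% of knockdown and 13.4 to 17.4% of control RNA libraries; their part in the difference was not tested.

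In the RNA, 59 of the 63 genes had enough counts to test, and 31 of them changed at an adjusted p under 0.05, 9 higher and 22 lower in the knockdown. This is 52.5% of the factors, where 43.8% of all 11117 genes tested were called. The lower calls were 37.3% of the factors against 21.7% of all genes, and the higher calls 15.3% against 22.0%. The median log2 fold change (knockdown over control) was -0.23 for the factors and 0 for all genes. In 37 of the 59 factors the groups did not overlap, against 53.0% of all genes; in 26 the knockdown was lower (44.1%, against 26.2% of all genes) and in 11 it was higher (18.6%, against 26.8%). The count of lower calls rested partly on single libraries, being 14 without knockdown replicate 1 (23.7% of the factors, against 16.6% of all genes) and 14 without control replicate 1 (23.7% against 16.6%). With the replicate number added to the model as a block, 12 factors were lower (20.3%, against 17.4% of all genes).

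In the footprints, as many factors were called higher as lower. Of 57 factors tested, 6 were higher and 6 lower, 21.1% against 16.1% of all 8969 genes (8.76% higher and 7.38% lower), with a median log2 fold change of 0.08 against -0.01. The 6 higher calls became 2 without knockdown replicate 1, 2 without knockdown replicate 3 and 3 without control replicate 1. The footprint-to-RNA ratio, tested in 1 model of the 12 RNA and footprint libraries as a knockdown effect that differs between the assays, was higher for 2 of 59 factors and lower for 0 at an adjusted p under 0.05, which is 3.39% where 0.203% of all 10821 genes were called (0.129% higher and 0.0739% lower). With 1 library left out, no factor was called higher in 9 of 12 fits, and 1 to 3 were in the other fits. With the replicate block, no factor was called for the ratio. The median log2 fold change of the ratio was 0.25 for the factors and 0.02 for all genes. Above 0 were 44 of the 59 factor values, against 5607 of 10821 over all genes.

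Setting the assays side by side, 5 of the 22 factors with lower RNA also had lower footprints, 16 had no footprint call and 1, Eif1ax, had higher footprints. Of the 9 with higher RNA, Eif3a and Eif4g1 also had higher footprints. Eef1b2, Eef1d and Eif4e3 had higher footprints without an RNA call, and Eif3d had lower footprints without one. The 4 genes with no test were Eef1a2, the elongation factor 1 alpha of muscle and neurons, with no RNA read and 2 footprints in control replicate 1, and Eif4e1b, Eif3j1 and Eif3j2, with no read in any library. Eif3j1 and Eif3j2 are near-identical copies, whose reads counting can leave out. Named pseudogene copies in the RefSeq table (3 of Eif1, 2 of Eef1a1, 1 each of Eef2 and Eif2s3x) make the counts of those genes less certain in the same way.

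**Figure D1:**
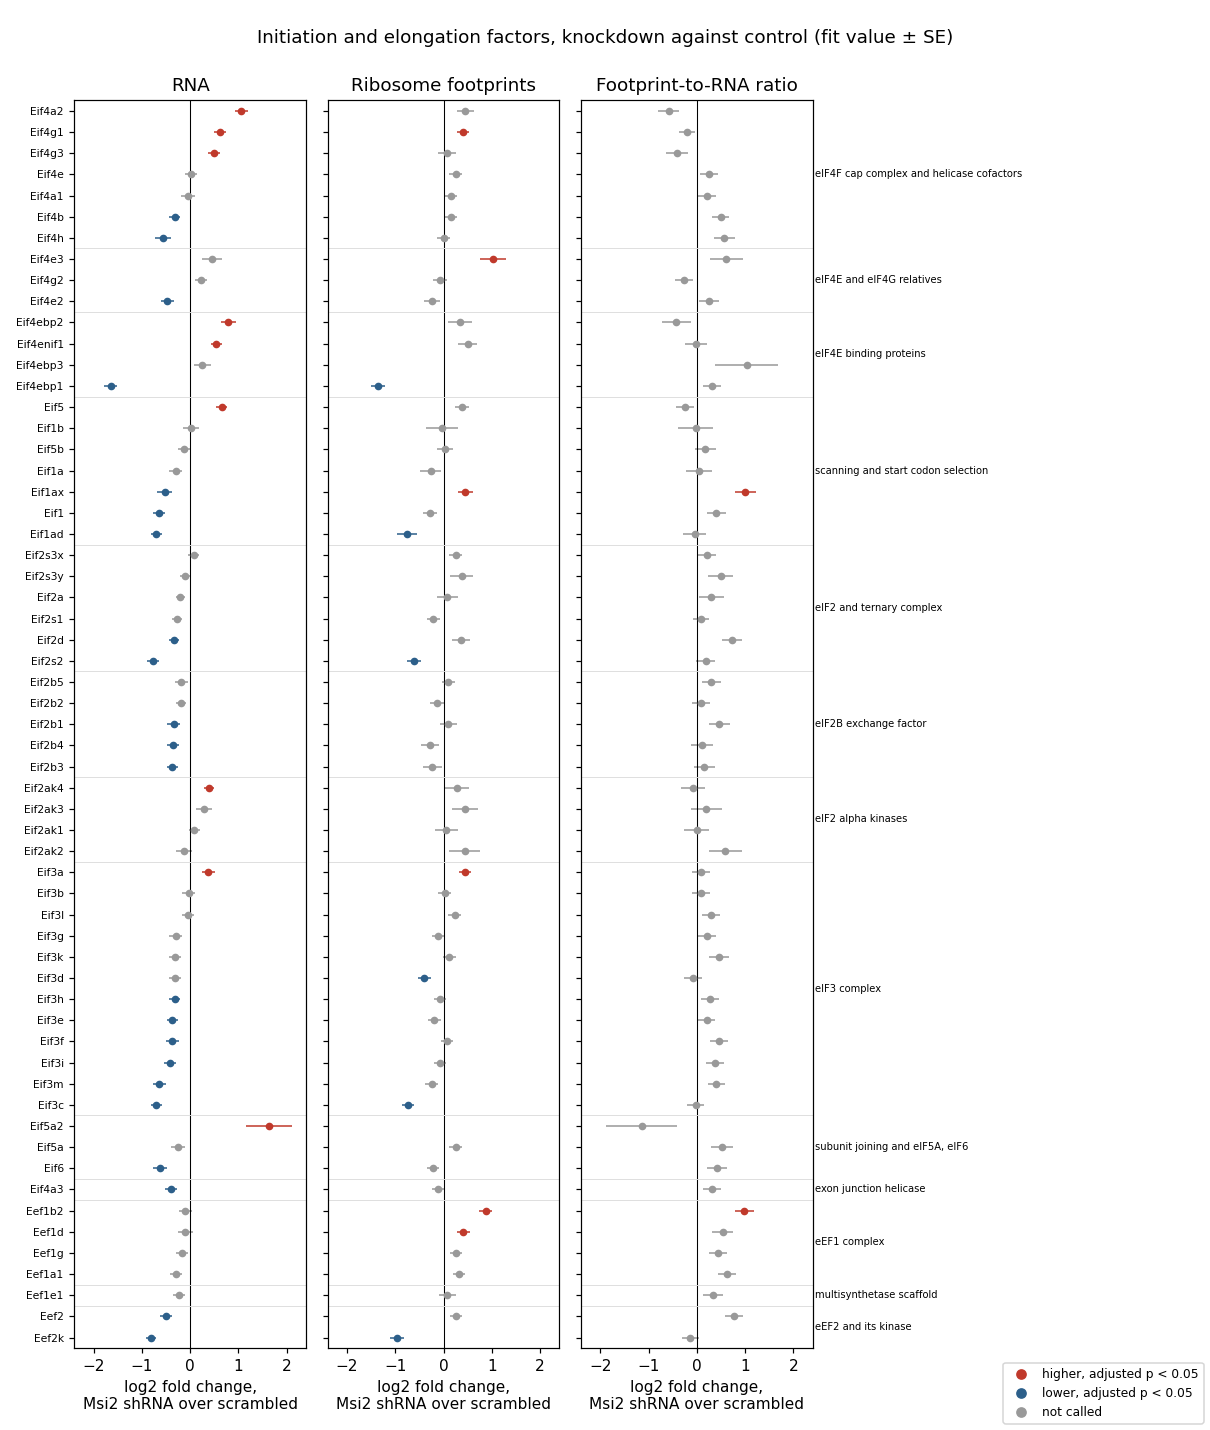
Log2 fold change (Msi2 shRNA over scrambled, fit value ± SE, 3 libraries a group and assay) of RNA, footprints and the footprint-to-RNA ratio for the 59 factors tested, grouped by role; red and blue points passed an adjusted p of 0.05, and factors too low to test in footprints have no point in the middle panel. RNA points lie mostly left of 0 (42 of 59, against 5523 of 11117 genes), and ratio points mostly right of it (44 of 59, against 5607 of 10821 genes).

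The largest change in footprints, and in RNA as well, lay among the eIF4E binding proteins, which sequester the cap-binding protein eIF4E. Eif4ebp1, encoding the classical mTOR target 4E-BP1, had 92.9, 115 and 93.0 CPM of RNA in knockdown libraries, against 357, 293 and 296 CPM in control libraries. Its footprints were 103, 146 and 117 CPM in the knockdown, against 312, 278 and 324 CPM in the control. All knockdown libraries lay below all control libraries in both assays. The log2 fold changes were -1.65 ± 0.13 for RNA (SE, adjusted p = 1.18e-07) and -1.36 ± 0.15 for footprints (adjusted p = 5.87e-09), by edgeR's quasi-likelihood test.

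Its paralog Eif4ebp2 went the other way in RNA, with 20.5, 25.1 and 18.1 CPM in the knockdown and 11.4, 11.2 and 14.4 CPM in the control, without overlap (log2 fold change 0.79 ± 0.16, adjusted p = 0.00102). Its footprints overlapped (0.34 ± 0.25, adjusted p = 0.387). Eif4enif1, encoding the eIF4E transporter 4E-T, had higher RNA, 152 ± 8.92 CPM in the knockdown and 104 ± 5.83 in the control (SD, n = 3 each; adjusted p = 0.000691), and uncalled footprints (0.50 ± 0.20, adjusted p = 0.0879). Eif4ebp3 passed no test and had too few footprints for one.

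The balance of the binding proteins was described by the log2 of Eif4ebp2 over Eif4ebp1 counts within each library, which leaves out scaling between libraries. In RNA this value averaged -2.25 ± 0.10 in knockdown and -4.68 ± 0.31 in control libraries (SD, n = 3 each), a difference of 2.44. In footprints it averaged -2.23 ± 0.43 in knockdown and -3.88 ± 0.34 in control libraries, a difference of 1.65. Neither assay had an overlap between groups. This pair and 3 others were chosen after their values were seen, and of the 8 exact two-sided permutation tests these gave p = 0.1 each, 0.267 after Benjamini-Hochberg adjustment, so the design could not reach 0.05.

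The cap complex itself was mixed. Eif4e, the cap-binding subunit, did not pass a test, with 121, 88.4 and 104 CPM of RNA in the knockdown against 107, 106 and 94.9 CPM in the control. Its RNA log2 fold change of 0.02 ± 0.12 turned to -0.03 once each library's trend with gene span was removed. Eif4g1, the scaffold that joins eIF4E to eIF3, had 515, 484 and 521 CPM of RNA in the knockdown and 345, 333 and 310 CPM in the control. Its footprints were 319, 347 and 345 CPM in the knockdown and 262, 261 and 237 CPM in the control. Both assays separated the groups, with log2 fold changes of 0.62 ± 0.12 for RNA (adjusted p = 0.000434) and 0.40 ± 0.13 for footprints (adjusted p = 0.0298). The footprint call was lost without any 1 of knockdown replicates 1, 2 or 3 or control replicate 1 (adjusted p 0.0601 to 0.156). Eif4g3, a second scaffold, had higher RNA only (0.49 ± 0.12, adjusted p = 0.00408), a call lost after removal of the gene span trend (0.24, adjusted p = 0.0808).

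Eif4a2, a paralog of the RNA helicase of the cap complex, had 271, 359 and 340 CPM of RNA in knockdown libraries, against 137, 145 and 185 CPM in control libraries. The groups were apart, and the log2 fold change was 1.06 ± 0.14 (adjusted p = 2.38e-05). Its footprints were 82.1, 108 and 84.4 CPM in the knockdown and 68.0, 53.7 and 81.3 CPM in the control, just without overlap (0.45 ± 0.18, adjusted p = 0.078). Eif4a1, the main helicase, had overlapping RNA, 1930 ± 164 CPM in the knockdown and 1980 ± 298 in the control (SD, n = 3 each; log2 fold change -0.04, 0.09 after removal of the gene span trend). Within libraries, the log2 of Eif4a2 over Eif4a1 RNA averaged -2.58 ± 0.30 in knockdown and -3.67 ± 0.42 in control libraries, a difference of 1.09 (exact permutation p = 0.1, the smallest possible). In footprints the difference was 0.30 and the groups overlapped (exact p = 0.5).

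The helicase cofactors had lower RNA and no footprint call. Eif4h had 128, 95.4 and 127 CPM of RNA in the knockdown against 223, 146 and 145 CPM in the control (log2 fold change -0.56 ± 0.16, adjusted p = 0.0119), of which control replicate 1 carried much, since without it the value was -0.34 (adjusted p = 0.0823). Its footprints had a log2 fold change of 0.00 ± 0.13. Eif4b, a substrate of S6 kinase, had an RNA log2 fold change of -0.32 ± 0.11 (adjusted p = 0.0288) that was lost without any 1 of knockdown replicates 1, 2 and 3 or control replicate 1 (0.0677 to 0.112). Among the relatives, Eif4e2, a cap binder that represses translation, had lower RNA (-0.47 ± 0.13, adjusted p = 0.00656). Eif4e3 had higher footprints, 26.0, 35.9 and 20.3 CPM in the knockdown and 12.2, 12.7 and 14 CPM in the control (1.03 ± 0.27, adjusted p = 0.00691), a call lost without knockdown replicate 1 (adjusted p = 0.0518).

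**Figure D2:**
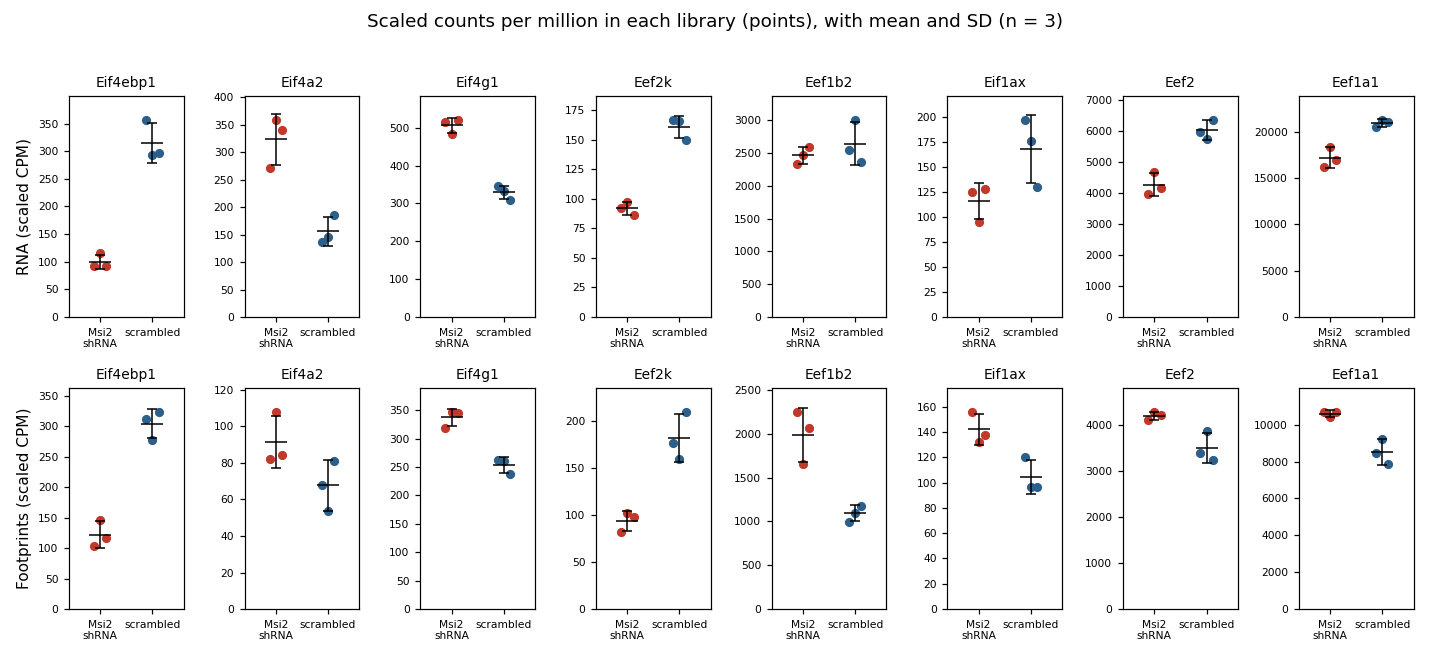
Scaled CPM of RNA (upper row) and footprints (lower row) in each Msi2 shRNA (left, red) and scrambled (right, blue) library for 8 factors, with mean and SD (n = 3) in black; axes start at 0. Eif4ebp1 and Eef2k were lower in the knockdown in both rows, while the RNA of Eif1ax and Eef2 lay lower and their footprints higher.

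Among factors that scan for and select the start codon, RNA was higher for 1 of 7 and lower for 3 of 7. RNA counts by role, here and below, stand beside 15.3% higher and 37.3% lower of all factors tested. The shares of all genes were 22.0% and 21.7% in RNA, and 8.76% and 7.38% in footprints. Eif1, which guards start codon choice, had 879, 937 and 970 CPM of RNA in the knockdown and 1590, 1490 and 1300 CPM in the control (-0.65 ± 0.13, adjusted p = 0.000623), with overlapping footprints. Eif5, the GTPase activator that eIF1 opposes, had 351, 346 and 375 CPM in the knockdown and 212, 246 and 223 CPM in the control (0.65 ± 0.11, adjusted p = 0.000266). Both pairs of groups were apart in RNA, and in opposite directions. Eif1ad, an eIF1A-like protein that acts in ribosome assembly in human cells, was lower in RNA (-0.70 ± 0.12, adjusted p = 0.000178) and in footprints (-0.76 ± 0.21, adjusted p = 0.00797; 0.0545 under DESeq2).

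Eif1ax, which encodes the eIF1A that promotes scanning, was the only factor called in opposite directions by the assays. Its RNA stood at 125, 95.3 and 128 CPM in knockdown libraries and 197, 176 and 130 CPM in control libraries, with the highest knockdown library just under the lowest control library (-0.53 ± 0.15, adjusted p = 0.00807). Its footprints were 156, 132 and 138 CPM in the knockdown and 120, 96.4 and 96.7 CPM in the control (0.45 ± 0.15, adjusted p = 0.0338). Its ratio was higher by 1.00 ± 0.22 on the log2 scale (adjusted p = 0.0382). That ratio call was lost in 10 of the 12 fits that left out 1 library (adjusted p 0.0547 to 0.241) and kept without RNA control replicate 3 or footprint knockdown replicate 2. The RNA call was lost without control replicate 1 (0.067), and the footprint call under DESeq2 (0.108) and without knockdown replicate 1 or 3 or control replicate 2. Eif1a, its close copy elsewhere in the genome, passed no test, and counting can leave out reads shared by the copies.

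Subunits of eIF2, which carries the initiator tRNA, differed. Eif2s2, the beta subunit, had 492, 463 and 494 CPM of RNA in the knockdown and 895, 860 and 717 CPM in the control. Its footprints were 324, 251 and 292 CPM in the knockdown and 496, 368 and 484 CPM in the control. Neither assay had an overlap (RNA -0.77 ± 0.13, adjusted p = 0.000142; footprints -0.61 ± 0.14, adjusted p = 0.00171). Eif2s1, the alpha subunit that the kinases phosphorylate, missed the threshold in RNA (-0.27 ± 0.11, adjusted p = 0.0577) and passed it under DESeq2 (0.0433), after removal of the gene span trend (0.0405) and without control replicate 3 (-0.34, adjusted p = 0.00836), and the X- and Y-linked gamma subunits passed no test. All 5 subunits of eIF2B, which recharges eIF2 with GTP, had negative RNA values (-0.37 to -0.18), 3 of them called, and none was called in footprints; the catalytic Eif2b5 was not called (-0.18 ± 0.13). Of the 4 kinases, Eif2ak4, the amino acid sensor GCN2, had higher RNA (0.39 ± 0.11, adjusted p = 0.0115), which was lost without knockdown replicate 3, without control replicate 1 and after removal of the gene span trend (0.18, adjusted p = 0.203). Eif2ak3, the endoplasmic reticulum kinase PERK, overlapped in both assays.

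The eIF3 complex, the largest initiation factor, moved unevenly. Of 12 subunits tested, 11 had negative RNA values and 6 of these were called, while 1, Eif3a, was higher. Lower calls made up 37.3% of all factors tested and 21.7% of all genes. Eif3c, a core subunit, had 443, 484 and 474 CPM of RNA in the knockdown and 842, 727 and 700 CPM in the control. Its footprints were 578, 642 and 553 CPM in the knockdown and 1090, 886 and 974 CPM in the control. The groups were far apart in both (RNA -0.70 ± 0.12, adjusted p = 0.000281; footprints -0.74 ± 0.13, adjusted p = 6.17e-05). Eif3a, the scaffold that holds Eif3c, had 600, 558 and 621 CPM of RNA in the knockdown and 496, 384 and 490 CPM in the control. Its footprints were 713, 734 and 706 CPM in the knockdown and 527, 470 and 591 CPM in the control. It was higher in both (RNA 0.38 ± 0.13, adjusted p = 0.0249; footprints 0.44 ± 0.13, adjusted p = 0.0136), the footprint call being lost without knockdown replicate 3, control replicate 1 or control replicate 2 (0.0523 to 0.0763).

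Eif3m (-0.64 ± 0.13, adjusted p = 0.000724) and Eif3i (-0.42 ± 0.13, adjusted p = 0.0143) had lower RNA with no footprint call, and Eif3i was lost without knockdown replicate 1 (adjusted p = 0.0611). Eif3d, the subunit that can itself bind caps, had lower footprints (-0.40 ± 0.14, adjusted p = 0.0408), a call lost under DESeq2 (0.103), after removal of the gene span trend (0.0745) and without any 1 of knockdown replicates 1, 2 and 3 or control replicate 1. Of the late factors, Eif6, which keeps the ribosomal subunits apart, had lower RNA, 482 ± 60 CPM in the knockdown and 744 ± 120 in the control (SD, n = 3 each; -0.63 ± 0.14, adjusted p = 0.00207). Eif5a, which helps ribosomes through hard peptide bonds and carries the amino acid hypusine, passed no test. Its low paralog Eif5a2 had 1.04, 1.20 and 1.88 CPM of RNA in the knockdown and 0.256, 0.655 and 0.428 CPM in the control (1.64 ± 0.48, adjusted p = 0.0109), a call lost without knockdown replicate 3 (0.0934) or control replicate 1 (0.0643).

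Of the 4 genes of the eEF1 complex tested none had an RNA call, and 2 had higher footprints. Eef1e1, grouped apart by role as a multisynthetase scaffold, was called neither in RNA (-0.23 ± 0.12, adjusted p = 0.119) nor in footprints (0.08 ± 0.17, adjusted p = 0.798). Eef1b2, the beta subunit that reloads eEF1A with GTP, had 2340, 2470 and 2590 CPM of RNA in the knockdown and 2550, 3010 and 2370 CPM in the control, which overlapped. Its footprints were 2250, 1650 and 2070 CPM in the knockdown and 995, 1100 and 1180 CPM in the control, far apart. The log2 fold changes were -0.10 ± 0.13 for RNA (adjusted p = 0.574; 0.07 after removal of the gene span trend), 0.87 ± 0.13 for footprints (adjusted p = 7.11e-06) and 0.98 ± 0.20 for the ratio (adjusted p = 0.0336). The footprint call held with each of the 6 footprint libraries left out in turn. The ratio call was lost in 9 of 12 such fits (adjusted p 0.0526 to 0.136) and kept without RNA control replicate 3, footprint knockdown replicate 2 or footprint control replicate 2.

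Eef1d, the delta subunit, had 978, 819 and 813 CPM of footprints in the knockdown and 549, 720 and 701 CPM in the control (0.41 ± 0.13, adjusted p = 0.0286), which missed the threshold under DESeq2 (0.0501) and without knockdown replicates 1 or 3 or control replicate 1. Eef1a1, which brings the aminoacyl-tRNA to the ribosome, had 16200, 18400 and 17000 CPM of RNA in the knockdown and 20500, 21300 and 21100 CPM in the control. Its footprints were 10700, 10400 and 10700 CPM in the knockdown and 8440, 9230 and 7860 CPM in the control. The groups were apart in both assays and in opposite directions, but neither call passed (RNA -0.29 ± 0.13, adjusted p = 0.091; footprints 0.32 ± 0.13, adjusted p = 0.0826), nor did the ratio (0.62 ± 0.19, adjusted p = 0.161). DESeq2 called its RNA (adjusted p = 0.0116) and its ratio (0.57, adjusted p = 0.00165).

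Eef2, the translocase that moves the ribosome by a codon, had 3950, 4680 and 4160 CPM of RNA in the knockdown and 5980, 5740 and 6360 CPM in the control (-0.50 ± 0.13, adjusted p = 0.00587; 0.0501 without knockdown replicate 1). Its footprints were 4110, 4290 and 4210 CPM in the knockdown and 3400, 3880 and 3250 CPM in the control (0.26 ± 0.13, adjusted p = 0.172). The ratio value was 0.77 ± 0.19 (adjusted p = 0.0662), and passed under DESeq2 (0.72, adjusted p = 0.000342), with no low-count filter (0.0346) and after removal of the gene span trend (0.0253). Eef2k, the kinase that phosphorylates and stops eEF2, was lower in both assays. It had 92.1, 97.0 and 86.6 CPM of RNA in the knockdown and 167, 166 and 150 CPM in the control, and 82.1, 102 and 97.6 CPM of footprints in the knockdown and 177, 160 and 210 CPM in the control. All knockdown libraries lay below all control libraries (RNA -0.81 ± 0.11, adjusted p = 2.62e-05; footprints -0.97 ± 0.15, adjusted p = 1.28e-05).

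**Figure D3:**
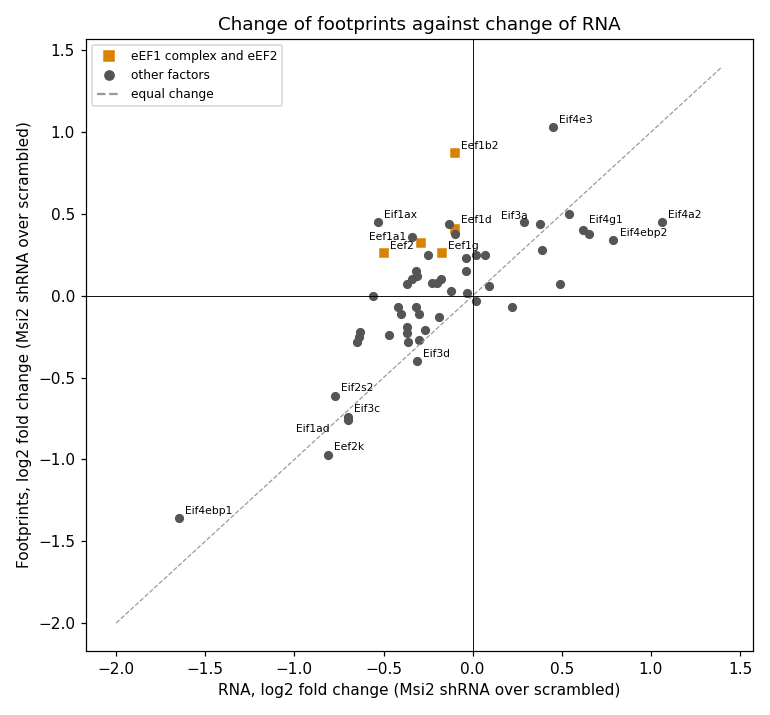
Log2 fold change of footprints (vertical) against that of RNA (horizontal), Msi2 shRNA over scrambled, for the 57 factors tested in both; orange squares are the 4 tested eEF1 subunits and Eef2, and the dashed line marks equal change. Eif4ebp1, Eef2k, Eif3c and Eif2s2 lie near the line at lower left, while the orange squares lie above it, left of 0 for RNA and above 0 for footprints.

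Many elongation factor mRNAs belong to the 5' terminal oligopyrimidine (TOP) class, which start with a C followed by pyrimidines and are translated under mTOR control. In a list of 15 non-ribosomal TOP mRNAs, 9 of which are factors described here and which was drawn up with earlier results of these data known, 5 were higher and 0 lower in footprints (8.76% and 7.38% of all genes), and 1 was higher and 5 lower in RNA (22.0% and 21.7% of all genes). The 5 with lower RNA were all among the 9 factors, and of the 5 with higher footprints 2 were (Eef1b2 and Eef1d). The median log2 fold change of the ratio was 0.46, beside 0.02 over all genes. In the control, the footprint-to-RNA ratios of the 9 factors lay between the percentiles 6.19 (Eef1g) and 45.0 (Eef1d) of all genes tested for the ratio. Factors outside the list were as low, among them Eif4enif1 (7.04), Eif4g2 (7.80) and Eif5b (9.40). The start regions were read from RefSeq (GRCm38.p6) as windows of 30 bases, 10 before and 20 from the annotated start, and searched on the gene's strand for a C followed by at least 4 C or T. They are shown, with the run in capitals, for both factors with a ratio call, for Eef1a1 and Eef2, for Eif3f, which has the longest run among the factors, and for Eif4a2, called higher in RNA.
Eef1b2 (chr1:63176821-63176850, plus strand): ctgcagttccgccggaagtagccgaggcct
Eif1ax (chrX:159372168-159372197, plus strand): ggaggagggcggggagaagccccgcccgct
Eef1a1 (chr9:78481705-78481734, minus strand): ctccgCCCTCTTCCCgagggtgggggagaa
Eef2 (chr10:81176621-81176650, plus strand): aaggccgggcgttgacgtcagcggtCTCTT
Eif3f (chr7:108934405-108934434, plus strand): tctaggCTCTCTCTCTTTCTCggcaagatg
Eif4a2 (chr16:23107458-23107487, plus strand): gaaaccccgtaggagcagggcggccgagga

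Such a run was in the window of 20 of the 49 factors with one, 40.8%, and of 40.0% of 17492 protein-coding genes, so its presence did not set the factors apart. Neither Eef1b2 nor Eif1ax, the factors called for the ratio, has the run in this window, while Eef1a1 and Eef2 do. Of the 9 factors on the TOP list, 5 had a window, and 4 of these had the run. The run counted wherever it lay in the window, so having it is not the same as starting with it. In Eef2 it lies at the window's end. The match is a description of these letters and depends on the annotated start.

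Around the factors, the other genes of the pathway moved in both directions. Their RNA counts stand beside 22.0% of all genes called higher and 21.7% called lower, and those in footprints beside 8.76% and 7.38%. Of 16 mTOR signalling genes tested in RNA, 2 were higher and 7 lower. Ddit4, an inhibitor of mTOR that stress induces, had 27.4, 46.9 and 24.1 CPM of RNA in the knockdown and 149, 104 and 117 CPM in the control (-1.92 ± 0.24, adjusted p = 0.000255). Its footprints were not called (-1.43 ± 0.42, adjusted p = 0.0923). Rheb, the GTPase that activates mTOR, had lower RNA too (-0.67 ± 0.11, adjusted p = 0.000126), and its footprints were not called (-0.56 ± 0.20, adjusted p = 0.0536). Tsc2, which switches Rheb off, had higher footprints (0.94 ± 0.19, adjusted p = 0.000483) and higher RNA (0.65 ± 0.12, adjusted p = 0.000497). The stress-induced Sesn2 had lower footprints (-0.84 ± 0.23, adjusted p = 0.00998), with groups that overlapped, and no RNA call. The Sesn2 call was lost under DESeq2 (0.11) and without knockdown replicate 1 or 3 or control replicate 1.

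Of 12 poly(A) binding and cap regulators, 5 were higher and 3 lower in RNA. Pabpc1, the poly(A) binding protein that contacts eIF4G, was higher in RNA (0.87 ± 0.14, adjusted p = 0.00014) and footprints (0.56 ± 0.13, adjusted p = 0.00178). Pdcd4, an inhibitor of eIF4A, had 3.53, 4.16 and 4.43 CPM of RNA in the knockdown and 12.1, 9.30 and 9.50 CPM in the control (-1.33 ± 0.20, adjusted p = 8.93e-05). Its footprints overlapped between the groups and were not called (-0.95 ± 0.35, adjusted p = 0.0603). Mknk2, a kinase of eIF4E, had lower footprints (-0.70 ± 0.17, adjusted p = 0.00368, and 0.0743 without knockdown replicate 3). Its RNA was lower too (-0.39 ± 0.11, adjusted p = 0.00911). Of 9 genes of eIF2 phosphorylation control, 1 was higher and 3 lower in RNA. Atf4 is the transcription factor whose translation rises when eIF2 is phosphorylated. It had 141, 173 and 156 CPM of footprints in the knockdown and 388, 275 and 460 CPM in the control (-1.26 ± 0.16, adjusted p = 2.86e-07). Its RNA was also lower (-0.58 ± 0.12, adjusted p = 0.0013), and its footprint-to-RNA ratio was not called (-0.66 ± 0.21, adjusted p = 0.172). Ppp1cb, a catalytic subunit of the phosphatase that acts on eIF2 alpha, was lower in RNA (-0.54 ± 0.13) and footprints (-0.67 ± 0.13, adjusted p = 0.000396).

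Of 10 termination and recycling genes, 2 were higher and 2 lower in RNA and none was called in footprints. Ltn1 (0.57 ± 0.12, adjusted p = 0.00117) and Nemf (0.46 ± 0.11, adjusted p = 0.00229), partners in the quality control of stalled ribosomes, had higher RNA. The release factor gene Etf1 (-0.39 ± 0.14, adjusted p = 0.0526) and Mcts1 (-0.62 ± 0.25, adjusted p = 0.0804) had the smallest footprint p. Of the pair of hypusine enzymes that modify eIF5A, Dhps had lower RNA (-0.51 ± 0.12, adjusted p = 0.00209) and Dohh did not pass (-0.03 ± 0.14). Hnrnpa1, an RNA-binding protein of the TOP list, had higher footprints (0.70 ± 0.13, adjusted p = 0.000223).

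Msi2 CLIP regions were called by the authors over all 5 libraries together, so they carry no comparison between conditions. The 3' UTR list held 18 regions in 10 factors, with heights of 10 to 28 and a median of 15, against a median of 16 and a highest value of 827 over all 2671 regions of the list. Thus 16.9% of the 59 factors tested in RNA had a region, against 10.3% of all 11117 genes. Among the 2779 genes with the most RNA, which hold 44 factors, the shares were 18.2% (8 factors) and 21.2%. Requiring a height of at least 20, or a read in all 5 libraries, left 3 factors each.

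Eif4g2, encoding DAP5, an eIF4G relative that works without eIF4E, held 5 of the 18 regions. The one with the most reads (chr7:111072317-111072734, mm10, minus strand, height 28) had 3, 32, 30, 47 and 43 reads in CLIP replicates 1 to 5. Its RNA was not called (0.22 ± 0.12), nor were its footprints (-0.07 ± 0.14). Eif5, Eif4a2, Eif4b and Eif4h had 2 regions each, and Eef1a1, Eif1ad, Eif2ak2, Eif3i and Eif4ebp2 had 1 each. The regions of Eif5 had 24 and 13 reads, those of Eif4a2 15 and 10, and that of Eif4ebp2 19.

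RNA of the 10 factors with a region was higher for 3 and lower for 4, with a median log2 fold change of -0.21, and of the 49 without one higher for 6 and lower for 18, with a median of -0.23. Footprints were lower for 1 of the 10 (Eif1ad) and higher for none, while of 47 without a region 6 were higher and 5 lower. Of all genes tested, 22.0% were higher and 21.7% lower in RNA, and 8.76% and 7.38% in footprints. Of the 10 factors with a region, the 3 higher in RNA were Eif4a2, Eif4ebp2 and Eif5. The 4 lower were Eif1ad, Eif3i, Eif4b and Eif4h. Other factors with changes described above, among them Eif4ebp1, Eef2k, Eef1b2, Eif1ax and Eif3c, had no 3' UTR region.

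The wider peak list placed most Msi2 reads within factor genes over small nucleolar RNAs (snoRNAs), which guide the modification of ribosomal RNA and are often released from introns of genes of the translation machinery. Of 25 regions in factor genes outside the 3' UTR list, 14 lay over an annotated snoRNA gene of RefSeq, 56.0%, against 13.8% of all 1380 such regions. Of the 16 snoRNA genes annotated inside factor genes, 14 held a region, against 14.2% of all 1340 annotated. The exceptions were Gm23346 within Eif2ak3 and Snora19 within Eif3a. The snoRNA was wholly inside the region in 13 of the 14, and 96.2% inside in the other. The RefSeq table gives no strand, so the overlap is by position. Neither comparison was matched for RNA level, and all annotated snoRNA genes were counted, whether expressed or not. Of the 59 factors tested in RNA, 44 are among the 2779 genes with the most RNA, and the part of this in the shares was not tested.

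These regions were in 7 factors, with 5 in Eif4a2, 3 in Eif4a1, 2 in Eef1b2 and 1 each in Eef2, Eif4g1, Eif4g2 and Eif5. The highest was in Eif4g2 over LOC115486847 (chr7:111076049-111076233), with 16, 39, 131, 189 and 163 reads in CLIP replicates 1 to 5. In Eif4a2, the region over Snord2 (chr16:23108953-23109045) had 5, 32, 27, 45 and 35 reads, and the one over Snora81 (chr16:23110754-23110941) had 1, 27, 36, 50 and 29. In Eef2, the region over Snord37 (chr10:81178946-81179054) had 5, 49, 38, 45 and 31 reads. Replicate 1, the shallowest library and the one with undiluted RNase, had the fewest reads in each.

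Over the 5 libraries the 14 snoRNA regions held 1733 reads, the 18 regions of the 3' UTR list 428 and the other 11 regions 159. Heights were 25 to 538 over snoRNAs (median 94.5), against 11 to 19 (median 14) in the 11 regions over none. Over all genes the medians were 68 over snoRNAs and 19 elsewhere outside the 3' UTR list. As a share of each library's reads in the wider list, the snoRNA regions of the factors took 0.651, 0.657, 0.727, 0.939 and 0.832% in replicates 1 to 5. No library of RNA recovered without the antibody was analysed here, so the heights are not corrected for the amount of each RNA. The host genes did not move together, since RNA was higher for Eif4a2, Eif4g1 and Eif5, lower for Eef2 and not called for Eif4a1, Eef1b2 and Eif4g2.

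**Figure D4:**
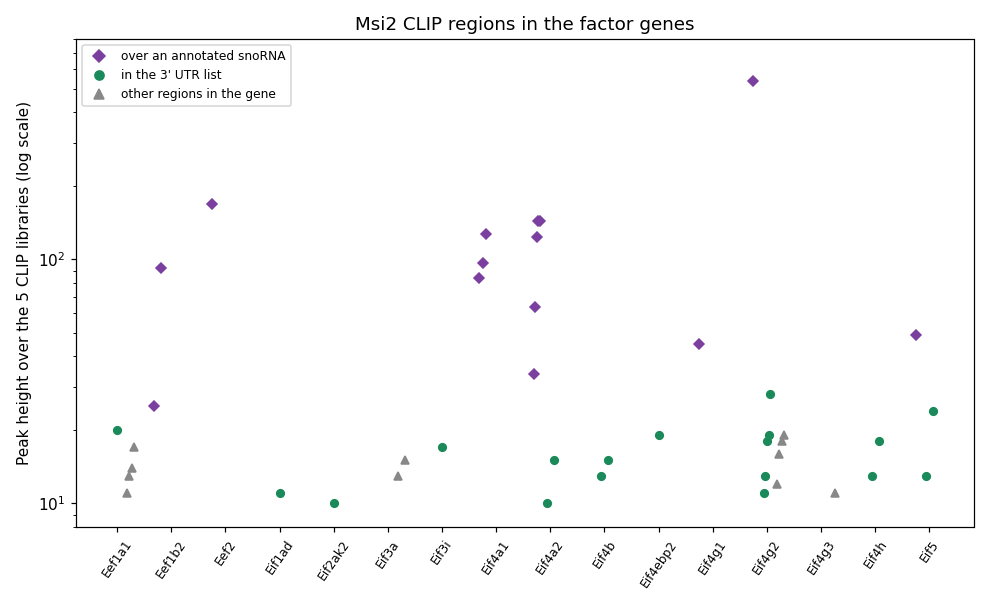
Peak height of each Msi2 CLIP region (log scale, over the 5 libraries) in the 16 factors with a region in either list. Purple diamonds lie over an annotated snoRNA, green circles are in the 3' UTR list and grey triangles are the other regions. Height can be below the number of reads, as in the Eif4g2 region of height 28, which held 155 reads. The diamonds reach 538 and all lie at 25 or above, while circles lie at 28 or below and triangles at 19 or below.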

How the data were processed

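Both gene tables were deposited as counts, 1 value for each gene and library, of reads on the coding sequence. The authors used TopHat and HTSeq with the build mm10, per the submitters' processing notes; DESeq is listed there too, without versions. The deposited peak lists give the height of each region summed over the CLIP libraries (the signal) and counts per library; cutadapt and Novoalign are named for them, and the peak caller is not given in the sources used here. RNA reads with no gene (32.3 to 35.2%), with several candidate genes (0.175 to 0.228%) or with several alignments (13.4 to 24.5%) stayed out of library sizes and tests.

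All genes were fitted by edgeR 4.0.16 under R 4.3.3 (filterByExpr, minimum count 10 and total 15, TMM scaling, robust quasi-likelihood F test), with Benjamini-Hochberg adjustment and a threshold of 0.05. RNA and footprints were fitted apart and the ratio as an interaction over the 12 libraries. Fold changes are knockdown over control on the log2 scale, each with its SE from the model; printed CPM values use the TMM library sizes. Separate cultures for the libraries within a group are not stated in the labels, so the p-values cover spread among libraries that may be technical only. No pair of replicates matched within sampling noise. The shallowest footprint library holds 512256 counts. Positions, snoRNA genes and start windows came from RefSeq tables of GRCm38.p6, which matched 20446 of 20572 symbols and all 63 factors. The fits were tested on simulated data. Alternatives were DESeq2 1.42.0, its size factors, other filters on low counts, removal of each library's trend with gene span, a replicate block, stricter peak sets and each library left out.

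The factors, the roles, the other gene lists and the tests were chosen with earlier results of these data known. Genes are named with values if called (up to 20 in RNA or in footprints by size of change), if called for the ratio, if they have a 3' UTR region, or if central to the pathway by a short written list (such as Eif4e, Eif2s1 and Eef2); of each other list the 2 genes of smallest RNA p and the 2 of smallest footprint p are named.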

Additional observations from a re-analysis of the deposited data

Results flagged for a closer look

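For the 3' UTR region of Eif2ak2, the kinase PKR that senses double-stranded RNA, CLIP replicate 4 stood apart from the other 4 libraries. It held 7 reads, 1.14 per 10000 reads of the library in the wider peak list, and the next library 0.223. The gap was 0.803 of the whole range. Of 17 groups of 5 libraries looked at, 1 stood apart in this way, and chance gives about 1 in 20. The value rests on few reads.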

How the results depend on the processing

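Under alternative settings, single genes kept their direction and side of the threshold in 242 RNA, 241 footprint and 136 ratio values. In the same order, 4, 6 and 3 values lost a call, 4, 4 and 5 gained one, and 5, 1 and 2 changed sign. With 1 library left out, 236, 223 and 271 values were kept. Of the rest, 12, 22 and 19 lost a call, 4, 3 and 3 gained one, and 6, 4 and 7 changed sign. Values near 0 changed sign. After removal of the gene span trend, RNA of Dohh was 0.13, Eef1b2 0.07, Eif4a1 0.09 and Eif4e -0.03, and the ratio of Eif2ak4 0.07. With a filter of 10 CPM, RNA of Dohh was 0.00 and the ratio of Eif2s1 -0.02; with no filter, Eif4h footprints were 0.00 (sign changed beyond the decimals shown). With 1 library left out, RNA ranged over -0.10 to 0.13 for Eif4e, -0.15 to 0.07 for Eif4a1 and -0.15 to 0.09 for Dohh, footprints over -0.10 to 0.12 for Eif4h and -0.19 to 0.05 for Eif4g2, and the ratio over -0.04 to 0.11 for Eif2s1, -0.27 to 0.01 for Eif2ak4, -0.08 to 0.30 for Eif2ak3 and -0.21 to 0.04 for Eif1ad.

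Deviations of same-numbered knockdown and control libraries from their group means correlated at 0.0814, -0.32 and -0.272 in RNA. In footprints they correlated at 0.0484, 0.0291 and -0.00338. With 3 libraries a group, these values cannot settle whether a replicate number marks a shared culture or day, which the labels do not state. With a replicate block, factors with lower RNA numbered 12 (20.3%, against 17.4% of all genes), ratio calls 0 among factors and 1 higher and 2 lower among all genes. DESeq2 called 481 genes higher and 373 lower in footprints, and for the ratio 4 factors higher and 60 genes higher and 38 lower. Removal of the span trend gave 10 factors higher in footprints and 27 genes higher in the ratio. For the ratio, DESeq2-type size factors gave 13 genes lower, no filter 46 higher and 78 lower, and the 10 CPM filter 1 factor and 3 genes higher. The causes were not tested. The 10 factors with a 3' UTR region became 3 at a height of at least 20, 3 with reads in all 5 libraries and 16 over both lists.

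With 1 library left out, RNA called 6 to 10 factors higher and 14 to 31 lower (all genes 1708 to 2721 and 1840 to 2765), footprints 2 to 8 and 5 to 7 (463 to 885 and 350 to 749), and the ratio 0 to 3 and 0 to 1 (0 to 94 and 0 to 149, both highest without RNA control replicate 3). Leaving out a CLIP library, an alternative chosen after seeing the data, left 7 to 10 factors. Footprint depth limits small changes. With 1 library left out, the ratio call of Eef1b2 was lost in 9 of 12 fits and that of Eif1ax in 10 of 12.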
